A study of Arabidopsis thaliana with 32 samples.

Results

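The SOUL heme-binding protein family was followed as 6 genes of the 21525 in the deposited table, chosen by their locus identifiers: cHBP1 (AT1G17100), cHBP2 (AT2G37970), cHBP3 (AT1G78450) and the SOUL-domain relatives AT1G78460, AT3G10130 and AT5G20140. The genes were named by locus and not by a cut on measured values, but with earlier results of these data known. The authors had already reported cHBP1, cHBP2 and cHBP3 as upregulated by PSI photoinhibition in these data, so their rise is not a fresh finding. All 6 genes passed the filter on low values. Gene expression was measured by RNA-Seq in leaves of wild-type Arabidopsis thaliana, Col-0, aged 6 to 7 weeks and raised with an 8 h day, each library coming from the seventh leaf of a plant. For 3 h the plants stayed in growth light (GL) of 100 µmol photons m-2 s-1 or received the PSI photoinhibition (PSI-PI) treatment, in which 30 s of growth light alternated with 3 rounds of weak red light (35 µmol, 5 s) and a strong white pulse (1000 µmol, 1 s). Both lights were given at 0, 100, 400 and 1000 ppm CO2, which makes 8 groups of 4 biological replicates and 32 leaves. A group therefore stands for 1 time point and 1 leaf position of 1 accession.

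SOUL proteins are small proteins that bind heme and other tetrapyrroles, and their founding members came from vertebrates, where they were described as heme-binding proteins of the cytosol. In Arabidopsis the cytosolic forms carry the name cHBP and have been regarded as possible tetrapyrrole carriers between the plastid, where heme is made, and the rest of the cell. The family also has members inside the chloroplast: the AT5G20140 protein (HBP5) binds heme and interacts with heme oxygenase 1, which opens the heme ring, and the AT3G10130 protein has been found in plastoglobules, the lipid droplets attached to thylakoids.

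The family is spread over 4 chromosomes, with 1 tandem pair (RefSeq annotation of TAIR10.1). cHBP1 lies at chr1:5844646-5845661 on the plus strand with 2 exons, and cHBP2 at chr2:15890869-15891704 on the plus strand with 1 exon. cHBP3 at chr1:29516989-29518028 and AT1G78460 at chr1:29518184-29519323 follow each other on the minus strand with 2 exons each. AT3G10130 at chr3:3130063-3133329 and AT5G20140 at chr5:6798832-6800977, both on the minus strand, have 8 exons each. The closest pair by sequence was not the tandem pair: the coding sequences of cHBP1 and cHBP3 were identical at 72.4% of 651 aligned bases, against 57.5% of 628 for cHBP3 and its neighbour AT1G78460. The 14 pairs other than cHBP1 and cHBP3 lay between 55.5 and 63.5%, and no pair of the 15 shared a stretch of 31 bases in its transcripts.

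The 155 bases between the tandem genes are printed because they are all the sequence that separates the start of cHBP3 from the end of AT1G78460. The 250 bases before the start of cHBP1 are shown as those of the member with the strongest response to PSI-PI, and those before AT1G78460 as the window with the most motif matches. Sequences are RefSeq TAIR10.1, written 5′ to 3′ on the strand of the gene, and capitals mark the matches.
between AT1G78460 and cHBP3 (chr1:29518029-29518183, minus strand): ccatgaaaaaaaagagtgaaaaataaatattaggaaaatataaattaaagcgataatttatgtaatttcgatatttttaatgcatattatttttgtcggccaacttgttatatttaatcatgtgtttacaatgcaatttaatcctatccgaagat
before cHBP1 (chr1:5844396-5844645, plus strand): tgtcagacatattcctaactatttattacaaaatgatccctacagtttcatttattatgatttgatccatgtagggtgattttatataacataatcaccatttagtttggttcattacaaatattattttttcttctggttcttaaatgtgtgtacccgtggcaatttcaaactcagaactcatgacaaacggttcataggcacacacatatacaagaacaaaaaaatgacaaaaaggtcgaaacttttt
before AT1G78460 (chr1:29519324-29519573, minus strand): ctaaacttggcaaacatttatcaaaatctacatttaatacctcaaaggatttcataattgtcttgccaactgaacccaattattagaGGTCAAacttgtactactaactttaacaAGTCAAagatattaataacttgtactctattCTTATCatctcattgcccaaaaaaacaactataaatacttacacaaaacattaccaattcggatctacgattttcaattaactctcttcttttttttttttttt
The motifs searched on both strands were the G-box CACGTG, the I-box GATAAG, the GLK site CCAATC and the W-box TTGACC or TTGACT, none of which overlaps another in the windows shown. The window of AT1G78460 held an I-box, read as CTTATC, and 2 W-boxes, read as GGTCAA and AGTCAA. AT5G20140 held 1 W-box (AGTCAA, 111 to 106 bases before the start), and cHBP1, cHBP2, cHBP3 and AT3G10130 held no match to any of these letters. The window of cHBP3 includes the end of AT1G78460. Among 27443 windows of the same length before protein-coding genes of the nuclear chromosomes, 6.49% held the G-box, 12.3% the I-box, 10.2% the GLK site and 28.4% a W-box.

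Normalized counts summed to between 18494378 and 31211055 per leaf, the highest totals being those of the 8 leaves at 100 ppm. Mesophyll markers were high in all 32 leaves, with RBCS1A between 107987 and 674184 normalized counts. The flower gene AG stayed between 1.03 and 38.1, and the root gene PYK10 between 0 and 1303. FER1, a gene of the iron store ferritin outside the family, averaged 2929 ± 2017 normalized counts in GL and 16733 ± 8362 under PSI-PI at 400 ppm (SD, n = 4). In these whole leaves, fewer cells expressing a gene and less RNA per cell cannot be told apart. The sources used here give no run or day for the CO2 levels, so a difference between CO2 levels and one between chamber runs cannot be told apart.

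Per kb of transcript, AT1G78460 was the most abundant member in every group. Its group means ran from 4342 to 12100.3 normalized counts per kb, those of cHBP1 from 841 to 4682, and those of cHBP3 from 695 to 2069. The lower levels were those of cHBP2, from 385 to 1216, of AT3G10130, from 769 to 1198, and of AT5G20140, from 615 to 1019 normalized counts per kb. The group means of normalized counts spanned 5.57-fold from the lowest to the highest group for cHBP1, 3.16-fold for cHBP2, 2.98-fold for cHBP3 and 2.79-fold for AT1G78460. For the chloroplast members AT3G10130 and AT5G20140 the span was 1.56-fold and 1.66-fold.

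**Figure D1:**
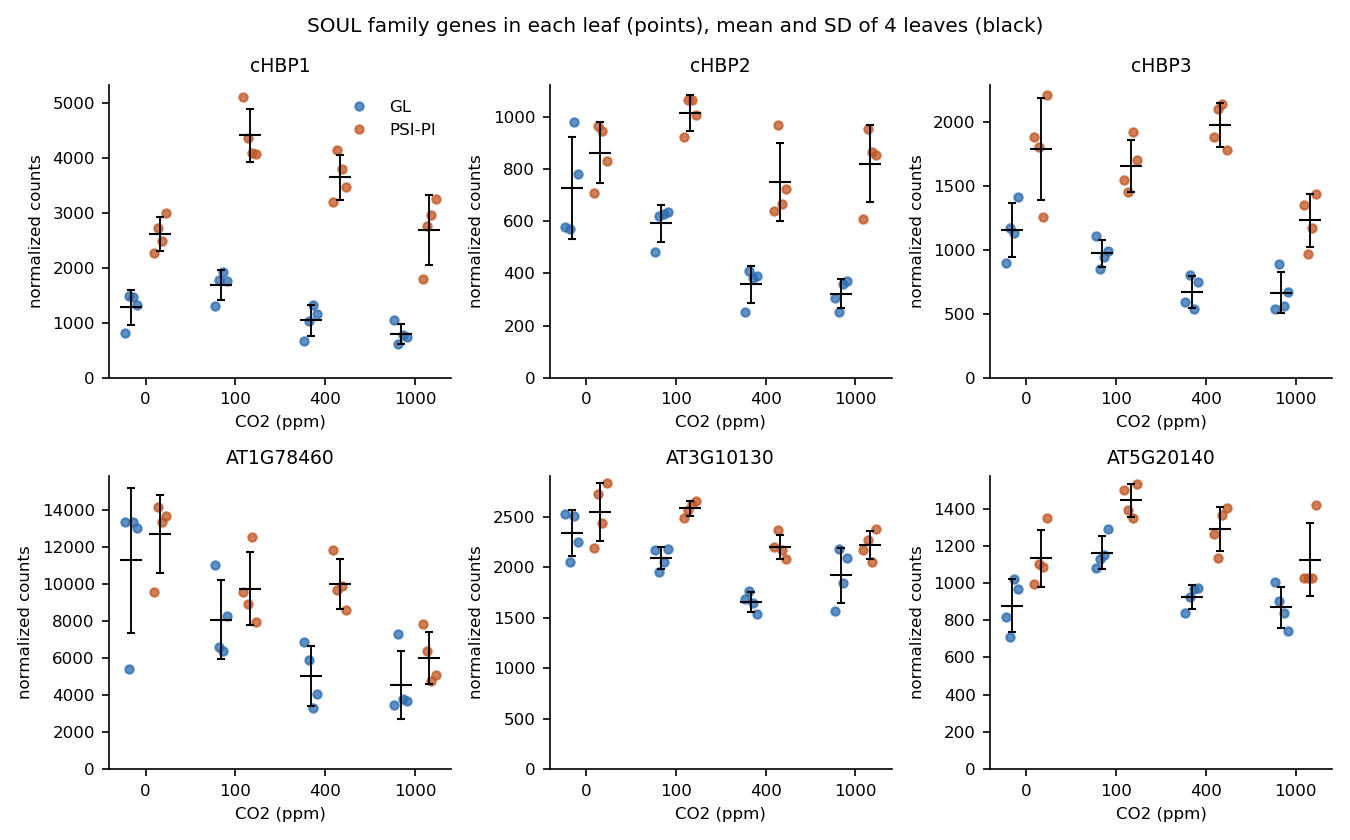
Normalized counts of the 6 SOUL family genes (y axes, starting at 0) in each leaf at 0, 100, 400 and 1000 ppm CO2 (x axes), GL in blue and PSI-PI in orange, with the mean and SD of 4 leaves in black. The PSI-PI leaves of cHBP1 lie above all GL leaves at each CO2 level, from 1787 to 5108 against 602 to 1921.

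The first question was whether PSI-PI changed the expression of the family at the same CO2 level. All 6 members rose when the treatment was averaged over the CO2 levels (18.8% of all genes tested rose in this contrast), by log2 fold changes of 1.52 for cHBP1, 0.97 for cHBP3, 0.87 for cHBP2, 0.50 for AT1G78460, 0.38 for AT5G20140 and 0.26 for AT3G10130. Only cHBP1 also passed the fold threshold of a DEG, a differentially expressed gene whose log2 value moved by 1 or more in either direction with an adjusted p below 0.05 (1.37% of genes tested were DEGs that rose). A member is said to have risen or fallen below only where limma gave an adjusted p under 0.05. At single CO2 levels, 2 of 6 members rose at 0 ppm (4.51% of genes tested), 4 at 100 ppm (6.64%), 6 at 400 ppm (13.8%) and 3 at 1000 ppm (6.89%), and none fell (2.53, 3.13, 11 and 3.57% of genes tested did). DEGs among them numbered 1 (1.02% of genes tested), 1 (1.27%), 4 (3.28%) and 2 (1.86%), all of them higher (0.326, 0.796, 2.91 and 0.759% of genes tested were DEGs that fell). The median log2 fold change of the 6 members came to 0.32, 0.54, 1.05 and 0.67 at the 4 levels, against medians of all genes tested between -0.01 and 0.00. The PSI-PI leaves lay entirely above the GL leaves for 1 member at 0 ppm (4.86% of genes tested), 5 at 100 ppm (12%), 6 at 400 ppm (17.8%) and 4 at 1000 ppm (9.11%). The counts and medians include cHBP1, cHBP2 and cHBP3, already reported as upregulated in these data, and so are no independent test of the family. Every member that rose at 0 and at 1000 ppm was one of these cHBP genes.

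cHBP1, a cytosolic heme-binding protein gene, had the strongest response and was a DEG at all 4 CO2 levels. At 400 ppm the GL leaves read 669, 1021, 1312 and 1159 normalized counts, and the PSI-PI leaves 3186, 4135, 3787 and 3469. At 1000 ppm the GL values were 1039.9, 602, 775 and 747 and the PSI-PI values 1787, 2753, 2952 and 3253. The lowest PSI-PI leaf at either level was still above the highest GL leaf. At 0 ppm the leaves read 820.0, 1487, 1469.9 and 1325 in GL and 2268, 2730.3, 2478 and 2987 under PSI-PI. At 100 ppm they read 1296, 1768, 1921 and 1762 in GL and 5108, 4355, 4088 and 4071 under PSI-PI, the highest group of all. The groups did not overlap at these levels either. Means were 2.05-fold higher at 0 ppm, 2.61-fold at 100 ppm, 3.50-fold at 400 ppm and 3.40-fold at 1000 ppm. The log2 fold changes with SE were 1.07 ± 0.20, 1.39 ± 0.20, 1.84 ± 0.20 and 1.76 ± 0.20, with limma adjusted p of 0.00192, 0.000106, 2.54e-07 and 1.59e-06. At 400 ppm the log2 fold change of cHBP1 was above that of 99.4% of genes tested. The call of cHBP1 at 0 ppm was lost when only the 8 leaves of that contrast were fitted (adjusted p = 0.0876), and without GL replicate 1 cHBP1 rose by 0.87 there, under the fold threshold of a DEG. Its adjusted p stayed under 0.05 with any leaf left out at all 4 levels.

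cHBP2, a second cytosolic heme-binding protein gene, rose at 100, 400 and 1000 ppm and was a DEG at the upper 2 levels. At 1000 ppm its leaves read 306, 251, 359 and 371 normalized counts in GL and 609, 954, 865 and 857 under PSI-PI. At 400 ppm they read 253, 409, 382 and 389.8 in GL and 641, 972, 668 and 723 under PSI-PI. In both cases every PSI-PI leaf was above every GL leaf. At 100 ppm the GL leaves read 483, 621, 627 and 637 and the PSI-PI leaves 923, 1067, 1065 and 1009.5, again without overlap. At 0 ppm the GL leaves read 578, 572, 983 and 780.3 and the PSI-PI leaves 709.7, 965, 948 and 834. These groups overlapped, and the GL leaves at 0 ppm were the highest of the GL leaves on average. The log2 fold changes with SE were 0.27 ± 0.18 at 0 ppm, 0.78 ± 0.18 at 100 ppm, 1.07 ± 0.18 at 400 ppm and 1.35 ± 0.18 at 1000 ppm, with limma adjusted p of 0.386, 0.00522, 6.2e-05 and 9.82e-06. At 0 ppm the 95% interval of the log2 fold change, -0.09 to 0.64, includes 0. At 400 ppm cHBP2 still rose but was under the fold threshold without GL replicate 1 (0.91), without PSI-PI replicate 2 (0.94) and with array weights (0.94).

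cHBP3, the relative with the coding sequence closest to cHBP1, rose at all 4 levels, and its response was largest at 400 ppm. There the GL leaves read 593, 801, 539 and 746 normalized counts and the PSI-PI leaves 1879, 2097, 2140.1 and 1778, a wide gap between the groups. At 1000 ppm the leaves read 536, 887, 563 and 665 in GL and 1351, 967, 1166 and 1436 under PSI-PI. At 100 ppm they read 1105, 847, 943 and 988 in GL and 1546, 1451, 1919 and 1698 under PSI-PI. The groups did not overlap at these 3 levels. At 0 ppm the GL leaves read 898, 1168, 1133 and 1413 and the PSI-PI leaves 1883, 1802, 1253 and 2205, and PSI-PI replicate 3 fell inside the GL range. The log2 fold changes with SE were 0.62 ± 0.17, 0.77 ± 0.17, 1.57 ± 0.17 and 0.90 ± 0.17 at 0, 100, 400 and 1000 ppm, with limma adjusted p of 0.0258, 0.00475, 2.12e-07 and 0.000744. The call at 0 ppm was lost in 5 of the 8 fits that left out 1 leaf (GL replicates 1 and 3, PSI-PI replicates 1, 2 and 4; adjusted p up to 0.118), and in a fit of the 8 leaves alone (0.282).

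AT1G78460, the tandem neighbour of cHBP3, rose only at 400 ppm among the 4 levels. The GL leaves there read 6849, 5921, 3325 and 4054 normalized counts and the PSI-PI leaves 11866, 9676, 9885 and 8623, without overlap and with a log2 fold change of 1.04 ± 0.27 (SE; limma adjusted p = 0.00562). At 0 ppm, where leaves of both lights were high, they read 13382, 5417, 13357 and 13036 in GL and 9599, 14178, 13361 and 13683 under PSI-PI. At 100 ppm they read 11028, 6599, 6387 and 8275 in GL and 9563, 8925, 12547 and 7979.5 under PSI-PI. At 1000 ppm they read 3467, 7308, 3769 and 3693 in GL and 7820.3, 6399.6, 4755 and 5062 under PSI-PI. The groups overlapped at these 3 levels, with log2 fold changes of 0.24 (95% interval -0.32 to 0.80) at 0 ppm, 0.29 (-0.27 to 0.85) at 100 ppm and 0.44 (-0.12 to 1.00) at 1000 ppm. In GL at 0 and at 1000 ppm 1 leaf stood far from the other 3, replicate 2 in both, at 5417 and at 7308. Without GL replicate 2 the log2 fold change at 0 ppm was -0.08. At 400 ppm AT1G78460 still rose but was under the fold threshold without GL replicate 3 (0.86), GL replicate 4 (0.96) or PSI-PI replicate 1 (0.96), and with quantile normalization (0.84). With quantile normalization the averaged rise was 0.32 (adjusted p = 0.0866).

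The chloroplast members moved less. AT5G20140, the gene of the heme oxygenase partner HBP5, rose at 400 ppm, where GL leaves read 837, 926, 965 and 974 normalized counts and PSI-PI leaves 1264, 1135, 1363 and 1402 (log2 fold change 0.48 ± 0.12, SE; limma adjusted p = 0.00413). Its log2 fold changes at 0, 100 and 1000 ppm were close in size, 0.37, 0.31 and 0.36, but missed the threshold (adjusted p = 0.0592, 0.101 and 0.0508). Their 95% intervals lay above 0, at 0.12 to 0.62, 0.07 to 0.56 and 0.12 to 0.61. Some alternatives turned these 3 values into calls. At 0 ppm these included upper quartile scaling (adjusted p = 0.0494) and leaving out GL replicate 3 (0.0377), GL replicate 4 (0.0478) or PSI-PI replicate 1 (0.0399). At 100 ppm they were array weights (0.0335) and a fit of the 8 leaves alone (0.0445), and at 1000 ppm they included leaving out GL replicate 1 (0.0251) or PSI-PI replicate 1 (0.046).

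AT3G10130, the plastoglobule-associated member, rose at 100 ppm and at 400 ppm. At 400 ppm its leaves read 1689, 1768, 1648 and 1535 normalized counts in GL and 2201, 2369.8, 2171 and 2080.1 under PSI-PI, and at 100 ppm 2170.1, 1953, 2057 and 2184 in GL and 2490.2, 2569, 2633 and 2661 under PSI-PI. Neither pair of groups overlapped, and the leaves of a group stayed close together. The log2 fold changes with SE were 0.41 ± 0.10 and 0.31 ± 0.10 (limma adjusted p = 0.00198 and 0.0371). At 0 and 1000 ppm they were 0.12 (95% interval -0.07 to 0.32) and 0.22 (0.02 to 0.41). The call at 100 ppm was lost without any 1 of 7 leaves, GL replicates 1, 2 and 3 and all 4 PSI-PI replicates (adjusted p up to 0.113), with upper quartile scaling (0.106) and with quantile normalization (0.394), while that at 400 ppm held in all these fits.

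**Figure D2:**
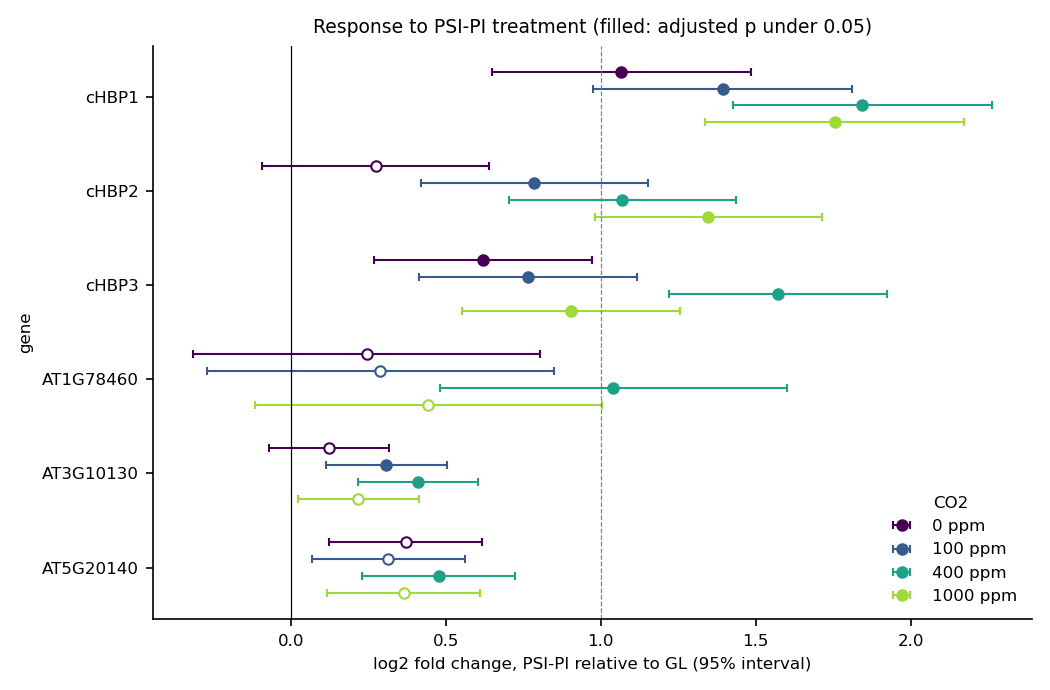
Log2 fold change of PSI-PI relative to GL (x axis, with its 95% interval) for the 6 genes (y axis) at each CO2 level, filled where the limma adjusted p was under 0.05, with a dashed line at the DEG threshold of 1. cHBP1 lies past 1 at every CO2 level, from 1.07 at 0 ppm to 1.84 at 400 ppm, and AT3G10130 and AT5G20140 stay below 0.5 throughout.

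In GL without PSI-PI, the members that passed the test were higher at the 2 lower CO2 levels than at 400 ppm. At 0 ppm, 4 of 6 members rose relative to 400 ppm (17.2% of genes tested rose) and 2 were DEGs (4.49%), and at 100 ppm all 6 rose (17.4%) with no DEG (4.26%). None fell at either level, where 16.6 and 17.1% of genes tested fell and 5.68 and 3.89% were DEGs that fell. At 1000 ppm none passed the test (0.177% of genes tested rose and 0.2% fell, and 0.107 and 0.126% were DEGs in these directions). Of the 6 members AT3G10130 alone had an unadjusted limma p under 0.05 (0.20, interval 0.01 to 0.40), while array weights called cHBP1 (adjusted p = 0.0313) and AT3G10130 (0.0469). The members had medians of 0.64, 0.63 and -0.12 on the log2 fold change scale at 0, 100 and 1000 ppm, against 0.00, 0.02 and 0.00 for all genes tested. These contrasts share the GL leaves at 400 ppm with the PSI-PI contrast at that level, so the 2 sets of values are not independent.

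At 0 ppm the DEGs were AT1G78460 and cHBP2. The GL leaves of AT1G78460 read 13382, 5417, 13357 and 13036 normalized counts at 0 ppm, against 6849, 5921, 3325 and 4054 at 400 ppm, so that replicate 2 at 0 ppm lay within the range of the 400 ppm leaves. Its log2 fold change was 1.13 ± 0.27 (SE; limma adjusted p = 0.00224), and 1.45 without that leaf. cHBP2 leaves ran from 572 to 983 at 0 ppm and from 253 to 409 at 400 ppm, without overlap, at 1.01 ± 0.18 (adjusted p = 0.000125). cHBP3 and AT3G10130 rose by 0.78 ± 0.17 (adjusted p = 0.000972) and 0.49 ± 0.10 (0.000299). cHBP1, the strongest responder to PSI-PI, had 0.30 with a 95% interval of -0.12 to 0.72, and AT5G20140 had -0.09 with -0.33 to 0.16. All 4 members kept an adjusted p under 0.05 at 0 ppm in the alternatives tried, but not every DEG kept its fold. AT1G78460 had 0.95 without GL 400 ppm replicate 3, and cHBP2 had 0.85 without GL 0 ppm replicate 3, 0.96 without GL 0 ppm replicate 4, 0.85 without GL 400 ppm replicate 1 and 0.98 with upper quartile scaling, and fell just short of 1 with quantile normalization and with a pseudocount of 5.

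At 100 ppm the rises were of like size for cHBP2, cHBP1, AT1G78460 and cHBP3, at log2 fold changes of 0.74, 0.72, 0.70 and 0.55 (limma adjusted p = 0.00201, 0.00667, 0.0465 and 0.0141). AT3G10130 and AT5G20140 followed with 0.33 and 0.33 (adjusted p = 0.00732 and 0.0356). The GL leaves of cHBP1 ran from 1296 to 1921 normalized counts at 100 ppm and from 669 to 1312 at 400 ppm, overlapping only through the lowest leaf of the first and the highest of the second. With 1 leaf left out, 4 or 5 of the 6 members were called. Calls were lost for AT5G20140 in 5 of 8 fits (GL 100 ppm replicates 2, 3 and 4, GL 400 ppm replicates 1 and 2), AT1G78460 in 4 (GL 100 ppm replicates 1 and 4, GL 400 ppm replicates 3 and 4) and cHBP3 in 2 (GL 100 ppm replicate 1, GL 400 ppm replicate 3), with adjusted p up to 0.108, 0.178 and 0.0647. The leaves at 100 ppm also had the highest totals of normalized counts, and the part of this in the result was not tested. Quantile normalization also ended the calls of AT1G78460 (adjusted p = 0.203) and AT3G10130 (0.0892).

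Under PSI-PI, 1 call was made among the members over the 3 contrasts with 400 ppm. None passed the test at 0 ppm (9.99% of genes tested rose and 11% fell) or at 100 ppm (11.2% rose and 11.4% fell), where DEGs made up 2.31 and 2.36% at 0 ppm and 2.66 and 1.98% at 100 ppm. Unadjusted p from limma was under 0.05 for 2 members at each level, cHBP1 (-0.48, interval -0.90 to -0.06) and AT3G10130 (0.20, 0.01 to 0.40) at 0 ppm and cHBP2 (0.45, 0.09 to 0.82) and AT3G10130 (0.23, 0.04 to 0.43) at 100 ppm. Array weights called cHBP2 and AT3G10130 at both levels (adjusted p = 0.0484 and 0.00493 at 0 ppm, 0.00379 and 0.00877 at 100 ppm), and leaving out PSI-PI 400 ppm replicate 2 called cHBP2 at 100 ppm (0.0303). At 1000 ppm cHBP3 fell by 0.69 on the log2 scale (SE 0.17; limma adjusted p = 0.0379; 1.01% of genes tested fell and 0.671% rose). It was not a DEG (0.144% of genes tested were DEGs that fell and 0.317% that rose). Its PSI-PI leaves read 1351, 967, 1166 and 1436 normalized counts at 1000 ppm and 1879, 2097, 2140.1 and 1778 at 400 ppm, without overlap. This call was lost in 7 of the 8 fits that left out a leaf (all but PSI-PI 1000 ppm replicate 4; adjusted p up to 0.148), with quantile normalization (0.053) and without the variance trend (0.0517). AT1G78460 had -0.76 (interval -1.32 to -0.20) and missed the threshold (adjusted p = 0.147), but was called with array weights (0.00667) and in a fit of the 8 leaves alone (0.0473). cHBP1 had -0.47 (interval -0.89 to -0.05), with an unadjusted limma p of 0.0297. Array weights also called AT5G20140 (-0.29, adjusted p = 0.0205).

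**Figure D3:**
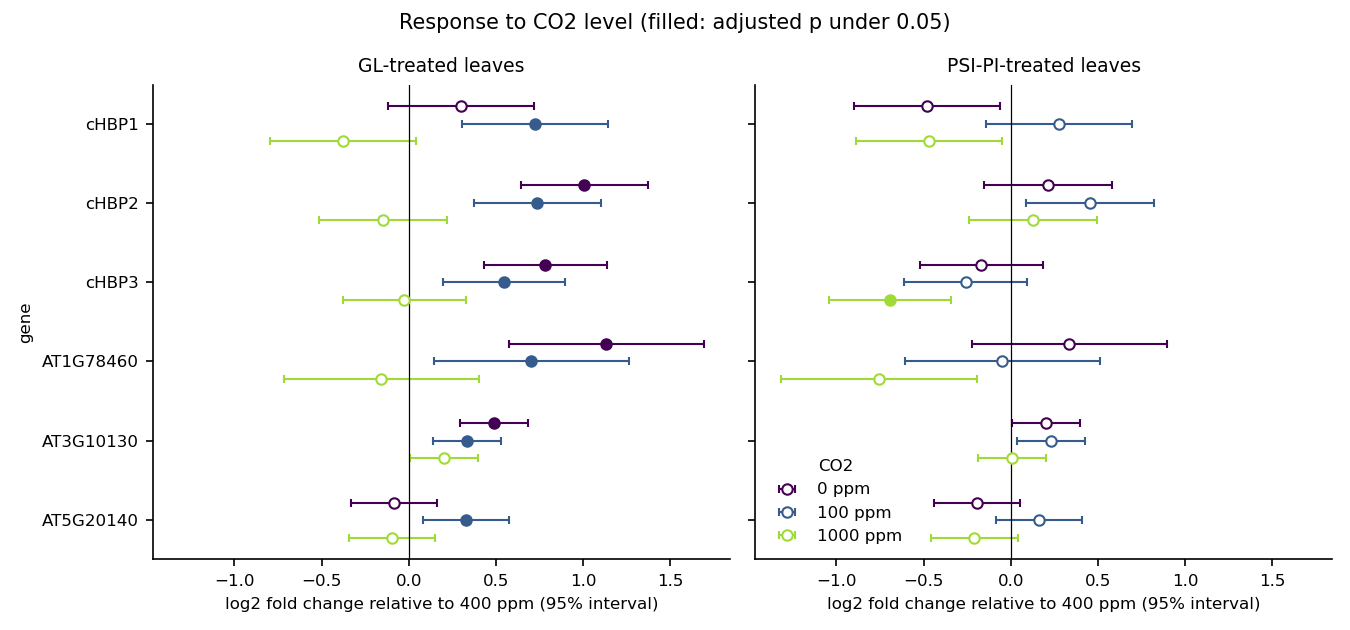
Log2 fold change relative to 400 ppm CO2 (x axes, with the 95% interval) of the 6 genes (y axis) in GL leaves (left) and PSI-PI leaves (right), filled where the limma adjusted p was under 0.05. In GL all 6 values at 100 ppm are filled, from 0.33 to 0.74, whereas in PSI-PI leaves only cHBP3 at 1000 ppm is (-0.69).

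Whether the response to PSI-PI itself differed between CO2 levels was tested as an interaction relative to 400 ppm. At 0 ppm the response was smaller for cHBP3, by -0.95 ± 0.24 on the log2 scale (SE; limma adjusted p = 0.0274), the only member called (1.9% of genes tested had a smaller or more negative response and 1.09% a larger one). The other cHBP genes and AT1G78460 had similar differences with wider intervals, -0.78 (-1.37 to -0.19) for cHBP1, -0.80 (-1.31 to -0.28) for cHBP2 and -0.80 (-1.59 to -0.00) for AT1G78460. The cHBP3 call was lost in 6 of 16 fits that left out a leaf (GL 0 ppm replicates 3 and 4, PSI-PI 0 ppm replicate 3, GL 400 ppm replicates 1 and 3, PSI-PI 400 ppm replicate 3; adjusted p up to 0.0698), and leaving out GL 0 ppm replicate 1 added cHBP1 (0.0356) and cHBP2 (0.0428). At 100 ppm none of the 6 members was called (0.00466% of genes tested were larger and 0.0419% smaller), although limma gave cHBP3 an unadjusted p of 0.00252, the only one under 0.05 of the 6, and it was called with array weights (adjusted p = 0.0492) and in a fit of the 16 leaves alone (0.0312). At 1000 ppm none was called in the family or among all genes tested, with an unadjusted p under 0.05 for cHBP3 alone of the 6 (0.0103). A joint F test of the 3 interactions called no member (1.74% of genes tested), cHBP2 and cHBP3 being nearest at adjusted p of 0.0734 and 0.091.

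Ordered by mean, GL at 1000 ppm was the lowest of the 8 groups for cHBP1, cHBP2, cHBP3, AT1G78460 and AT5G20140, and GL at 400 ppm for AT3G10130. PSI-PI at 100 ppm was the highest for cHBP1, cHBP2, AT3G10130 and AT5G20140, PSI-PI at 400 ppm for cHBP3 and PSI-PI at 0 ppm for AT1G78460. For cHBP1 the order followed light, all 4 GL group means lying below all 4 PSI-PI group means. Among neighbours in this order, leaves were separate only between GL at 100 ppm and PSI-PI at 0 ppm. Leaves of the 2 lights still overlapped across CO2 levels. The lowest PSI-PI leaf at 1000 ppm (1787) was below the highest GL leaf at 100 ppm (1921). For AT1G78460 it followed CO2 more closely, the group means at 0 ppm being the highest 2, at 12705 ± 2098 and 11298 ± 3924 normalized counts (SD, n = 4). Most neighbours in the order were not separated: leaves of adjacent groups overlapped in 6 of 7 steps for cHBP1, cHBP2 and AT5G20140, 5 for cHBP3 and 7 for AT1G78460 and AT3G10130.

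Pairs of members (cHBP1 with cHBP2, the tandem pair and the chloroplast pair) were also compared within leaves by the log2 ratio of their values. The ratio of cHBP1 to cHBP2 was higher under PSI-PI than in GL at all 4 levels, by 0.79, 0.61, 0.78 and 0.41, and the leaves separated at 0, 100 and 400 ppm. For the tandem pair, the ratio of cHBP3 to AT1G78460 differed by 0.38, 0.48, 0.53 and 0.46 and separated at 100 ppm only. For the chloroplast pair, the ratio of AT3G10130 to AT5G20140 differed by -0.25, -0.01, -0.07 and -0.15, with overlap throughout. With 4 leaves against 4 an exact two-sided permutation test cannot go below p = 0.0286, which the 4 separated ratios reached. After Benjamini-Hochberg adjustment over the 12 ratios this became 0.0857, so none passed. That lowest p could pass the adjustment only if most of the 12 ratios reached it. The test therefore cannot decide whether members responded unequally.

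Members also varied from leaf to leaf within groups. Across the 32 leaves, as a description of points that share group and library, log2 values of cHBP1 correlated with those of cHBP2 at r = 0.85 and of AT1G78460 at r = 0.40. After the group means were removed, the first pair kept a positive correlation (r = 0.63), while cHBP1 and AT1G78460 were opposed (r = -0.62, and -0.57 without the 2 leaves with the largest cHBP1 deviations). These were the highest and lowest of the 15 member pairs. The next were 0.59 for AT1G78460 and AT3G10130, and -0.27 for cHBP1 and AT3G10130. For cHBP1 and cHBP2, replicate 1 was below the group mean in both genes in every group but PSI-PI at 100 ppm and GL at 1000 ppm. The part of this in their correlation was not tested. The opposed pair was not set in advance, so it is an extreme of 15. The deviations of cHBP1 and AT1G78460 had opposite signs in 19 leaves and the same sign in 13. Their correlation within a group of 4 leaves was negative in 7 of 8 groups, from -0.93 to -0.08, and 0.80 in PSI-PI at 0 ppm. In GL at 1000 ppm, for example, replicate 2 had the lowest cHBP1 and the highest AT1G78460 value, at 602 and 7308 normalized counts, and in GL at 400 ppm replicate 1 had the lowest cHBP1 (669) and the highest AT1G78460 (6849). AT1G78460 also had the widest spread, with a coefficient of variation of up to 40.3% in a group, against at most 14.4% for AT3G10130.

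**Figure D4:**
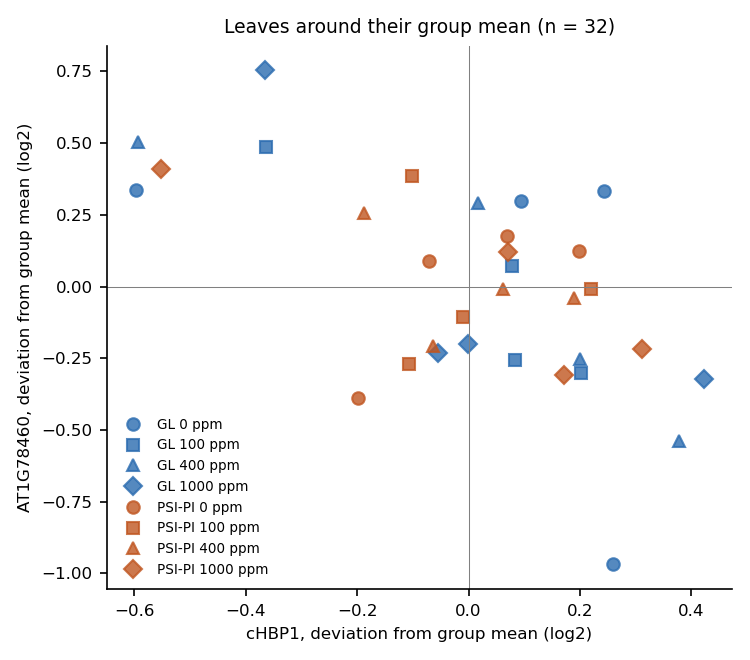
Deviation of each of the 32 leaves from its group mean on the log2 scale, cHBP1 on the x axis and AT1G78460 on the y axis, colours marking light and shapes the CO2 level. Over all leaves r is -0.62, the lowest of the 15 member pairs, with opposite signs in 19 leaves and the same sign in 13. GL 0 ppm replicate 2 is lowest on the y axis.

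Outside the family, the genes whose pattern over the 32 leaves was most like a member were named as the 3 with the highest Pearson r among 15597 genes. For cHBP1 these were AT5G52420 (r = 0.98), AT5G23920 (0.97), both of uncharacterized product, and AT3G56290 (0.97). Their deviations from group means correlated with those of cHBP1 at 0.89, 0.87 and 0.81. The r used to choose these genes includes the deviations, so these values are not independent of the choice. For cHBP2 they were DOGT1, a glucosyltransferase (0.95), ATSK12, a protein kinase (0.95), and AT4G37560, of the acetamidase family (0.94). AT5G20140 was most like AT1G22850 (0.96), RCA, the Rubisco activase (0.96), and AT5G38520, an alpha/beta hydrolase (0.95). cHBP3 was most like AT1G69800 (0.90), PrfB3, a peptide chain release factor (0.90), and MEE11 (0.90), but there the deviations from group means correlated less, at 0.40, 0.13 and 0.38. AT1G78460 was nearest to AT1G23050, AT1G80180 and AT5G25280 (0.90 each), and AT3G10130 to AT5G55970, SCL5 and AT1G19660 (0.89 each).

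The genes of heme synthesis and breakdown were set beside the family as a list of 24 measured genes. Under PSI-PI 4 rose at 0 ppm (4.51% of genes tested), 2 at 100 ppm (6.64%), 5 at 400 ppm (13.8%) and 3 at 1000 ppm (6.89%), and none fell (2.53, 3.13, 11 and 3.57%), with medians of the list of 0.20, 0.06, -0.01 and 0.17. Averaged over CO2 levels 9 rose (18.8% of genes tested) and 1 fell (17.8%), HEMA3 at -0.60, named here after its values were seen. FC2, a ferrochelatase that inserts iron to make heme, rose at all 4 levels, and at 400 ppm averaged 5278 ± 343 normalized counts against 2917 ± 397 in GL (SD, n = 4; log2 fold change 0.86, limma adjusted p = 2.54e-05). At 0, 100 and 1000 ppm its log2 fold changes were 0.47, 0.72 and 0.73. FC1, the other ferrochelatase, passed at no level, with -0.03, -0.04, -0.30 and 0.10. HO1, the heme oxygenase that opens the ring, rose at 400 ppm only, from 2071 ± 95.2 to 2671 ± 98.1 (0.37, adjusted p = 0.00271). The only DEG was HEMA1, a glutamyl-tRNA reductase at the first committed step, at 1000 ppm (1.22, limma adjusted p = 0.00329). There GL leaves ran from 1107 to 5426 and PSI-PI leaves from 4415 to 6849, with overlap. Its mean under PSI-PI at 1000 ppm, 5167 ± 1135, was close to that in GL at 400 ppm, 5097 ± 840. The mean in GL at 1000 ppm was lower, at 2607 ± 1921.

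Relative to 400 ppm in GL, 11 of the 24 genes fell at 0 ppm and 1 rose (16.6% of genes tested fell and 17.2% rose). HEMA1 and HEME1, a uroporphyrinogen decarboxylase named here after its values were seen, were DEGs that fell, at -1.43 and -1.23 (limma adjusted p = 0.000229 and 1.41e-05), and HO1 was the gene that rose, at 0.45 (adjusted p = 0.000348). At 100 ppm in GL 4 fell and 2 rose, a share of falls near that of all genes (17.1% fell and 17.4% rose), HO1 among those that rose at 0.74 (adjusted p = 3.58e-07). At 1000 ppm in GL 2 fell (0.2% of genes tested), 1 of them a DEG (0.126% of genes tested were DEGs that fell). Under PSI-PI 9 fell and 1 rose at 0 ppm relative to 400 ppm (11% of genes tested fell and 9.99% rose), and 1 fell and 1 rose at 100 ppm (11.4 and 11.2%).

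**Figure D5:**
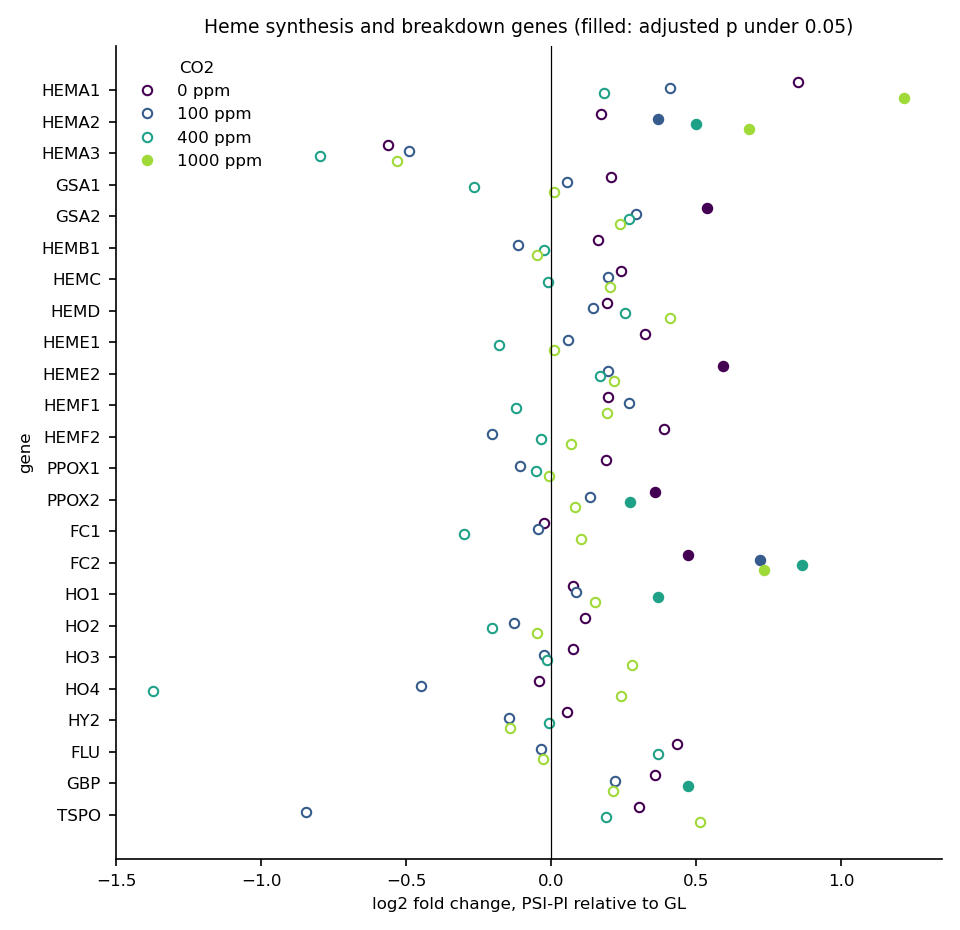
Log2 fold change of PSI-PI relative to GL (x axis) for the 24 genes of heme synthesis and breakdown (y axis) at each CO2 level, filled where the limma adjusted p was under 0.05. FC2 is filled at all 4 levels, between 0.47 and 0.86, and HEMA1 lies furthest to the right at 1000 ppm (1.22).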

How the data were processed

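RNA-Seq reads from 32 leaves were quantified by the authors with Salmon v0.12 against the TAIR10 cDNA set, summed to genes with tximport and normalized with DESeq2. The deposited signal values are these normalized counts. In all, 95.0% were not whole (tolerance 1e-06), the median ratio of each library to the gene-wise geometric mean was 1.0093 in all 32, and whole reads were not recovered, so no count model was run and read depth is unknown. A second deposited table holds the authors' fold changes and p-values and was not used. Groups came from the labels. Values were taken as log2(value + 1), which understates changes of low genes, for 21469 of 21525 genes (56 with a summed value under 10 were left out). All 32 leaves entered 1 model with 8 group means, fitted with limma 3.58.1 in R 4.3.3 (lmFit, eBayes with a variance trend, 24 residual degrees of freedom). Tests were two-sided, with Benjamini-Hochberg adjustment over all genes within a contrast. Whether the replicates came from separate growths is not given in the sources used here, so p-values measure the spread between these leaves. Ratios were tested by exact permutation (70 assignments). The fit was also run on simulated data in which leaves varied independently and with equal spread within a gene. Real leaves may not do so, and that run is no check of these p-values. Sequences and loci came from RefSeq TAIR10.1 (Biopython 1.88). Tables and plots used Python 3.11.15, pandas 2.3.3, numpy 2.4.6 and matplotlib 3.10.9. Genes named were the 6 members, heme genes fixed in a list and, for each member, the 3 genes with the highest Pearson r, out of genes averaging 50 or more. The members and lists were chosen with earlier results of these data known. Alternatives were no filter or a stricter filter, pseudocounts 0.5 and 5, quantile normalization, upper quartile scaling, no variance trend, array weights and a replicate block. Others were the leaves of a contrast alone, leaving out each leaf and, for all but the averaged contrast, the log2 ratio of group means without a test. HEMB2 is not analysed here.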

Additional observations from a re-analysis of the deposited data

Results flagged for a closer look

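In 5 of the 48 combinations of a member and a group, 1 leaf stood apart from the other 3 (its gap to the nearest leaf divided by the range of the group exceeded Dixon's 95% critical value for 4 samples), and chance flags about 1 in 20. These were cHBP2 in GL at 100 ppm (0.897, the lowest leaf at 483 normalized counts) and at 400 ppm (0.831, the lowest leaf at 253), AT1G78460 in GL at 0 ppm (0.957, the lowest leaf at 5417) and at 1000 ppm (0.921, the highest leaf at 7308), and AT5G20140 under PSI-PI at 1000 ppm (0.990, the highest leaf at 1420.3).

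The interaction term of limma called a smaller response of cHBP3 to PSI-PI at 0 ppm than at 400 ppm, by -0.952 on the log2 scale (adjusted p = 0.0274). The joint F test over the CO2 levels did not call it (adjusted p = 0.091), and the single term was lost in 6 of 16 fits with a leaf left out, as named in the report, and in a fit of the 16 leaves alone (0.0755).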

How the results depend on the processing

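Of 1872 values for the members under the alternatives, 1773 counted as kept, 49 lost a call, 32 gained one and 18 changed sign. Kept values held their direction and their side of the threshold, except for the log2 ratios of group means, which have no p-value. Those counted as kept because they lay near the main value, within its SE times the square root of 2. The causes were not tested, except that a fit of one contrast's leaves, or with a leaf left out, has fewer samples. Array weights changed the number of members called to 1 for PSI-PI at 0 ppm, 2 for 1000 ppm in GL, 2 for 0 ppm and 2 for 100 ppm under PSI-PI, 3 for 1000 ppm under PSI-PI and 1 for the interaction at 100 ppm, and the heme genes called for PSI-PI to 2 at 0 ppm, 9 at 400 ppm and 6 at 1000 ppm. A fit of the contrast's leaves alone called 0 members for PSI-PI at 0 ppm, 2 at 100 ppm and 2 at 1000 ppm under PSI-PI, 0 for the interaction at 0 ppm, 1 for that at 100 ppm, and 1 heme gene at 0 ppm. It was not run for the averaged contrast, which uses all leaves. Quantile normalization and no variance trend each called 0 at 1000 ppm under PSI-PI. Leaving out 1 leaf gave 1 to 3 members for PSI-PI at 0 ppm, 4 to 5 at 100 ppm in GL, 0 to 1 at 100 ppm and 0 to 1 at 1000 ppm under PSI-PI, 0 to 3 for the interaction at 0 ppm, and 1 to 4, 1 to 2, 4 to 7 and 3 to 4 heme genes at 0, 100, 400 and 1000 ppm.

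Whether same-numbered replicates share more than a number is not known. Over all genes tested, deviations of same-numbered leaves correlated between -0.505 and 0.283, and at most 3 leaves of a contrast correlated best with their own number. Replicate 1 of cHBP2 lay below its group mean in every group, by -0.475 (GL at 400 ppm) to -0.0556 (GL at 1000 ppm). For cHBP1 it did so except in PSI-PI at 100 ppm and GL at 1000 ppm. For the other members its side varied between groups. With the replicate block 1 member was called at 100 ppm under PSI-PI (cHBP2) and 2 for the interaction at 0 ppm (cHBP2 and cHBP3). The block also called AT5G20140 for PSI-PI at 0 ppm (limma adjusted p = 0.0434) and 1000 ppm (0.0354) and ended the call of AT1G78460 at 100 ppm in GL (0.0521).

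Signs changed for values near 0. For AT3G10130 at 1000 ppm under PSI-PI the log2 fold change was -6.3e-05 with upper quartile scaling, -0.0259 with array weights and -0.0255 to 0.0457 with a leaf left out. For the cHBP1 interaction at 1000 ppm it was 0.14 with array weights and -0.215 to 0.109 with a leaf left out. Leaving out a leaf also gave -0.078 to 0.374 for AT1G78460 under PSI-PI at 0 ppm, -0.164 to 0.0114 for AT5G20140 at 0 ppm in GL, -0.175 to 0.0669 for cHBP3 and -0.409 to 0.00922 for AT1G78460 at 1000 ppm in GL, and -0.177 to 0.0407 for AT1G78460 at 100 ppm under PSI-PI. The ratio of AT3G10130 to AT5G20140 differed by -0.0448 to 0.0467 at 100 ppm and -0.163 to 0.00144 at 400 ppm.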
